A study of Mus musculus with 4 samples.

Results

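The aminoacyl-tRNA synthetase genes were examined in F123-ESCs. Members were chosen by symbol: a 1-letter amino acid code followed by ars, with or without a final digit, plus Farsa, Farsb and Fars2. This gave 35 of the 24026 genes in the deposited table, 18 for cytosolic and 17 for mitochondrial enzymes. F123 is a male hybrid embryonic stem cell line from a cross of S129/Jae and Cast mice, genotype S129/CAST, so each autosomal gene has an S129 and a CAST allele. The S129 chromosomes are maternal and the CAST chromosomes paternal. With a single direction of cross, strain and parent of origin cannot be told apart in any difference between alleles. The 4 libraries, replicates 1 to 4, came from untreated cells of this single line. The cells were grown with LIF on inactivated feeder fibroblasts, moved to gelatin without feeders for the last passages, and harvested after about 48 h. The labels do not say whether the libraries came from separate cultures, so the p-values measure the spread between these libraries, which may be technical.

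Aminoacyl-tRNA synthetases join each amino acid to its tRNA, the step that sets the reading of the genetic code. Most amino acids have separate nuclear genes for the cytosolic enzyme and for the enzyme imported into mitochondria, the latter named with a final 2. Gars and Kars each encode both forms. Several cytosolic enzymes sit together in a multisynthetase complex with the scaffold proteins Aimp1, Aimp2 and Eef1e1. When amino acids run short, the factor ATF4 raises many cytosolic synthetase genes together with genes of amino acid synthesis and uptake.

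Levels are RPKM, the reads of a gene per kilobase of its length, scaled to the total reads of the allele. Where no allele is given, the value is the average of S129 and CAST. Reads without a SNP between the strains could not be assigned, so a gene with few SNPs reads low in comparison with other genes. The reads assigned to an allele came to between 34120417 and 56627973 per library. Across the stem cell markers, levels ran from 29.5 RPKM for Pou5f1 to 7111 RPKM for Dppa5a. Among 7 feeder markers the median was 2.18 RPKM with Col1a2 at 166 and 2 markers under 1 RPKM, and among 5 primitive endoderm markers the median was 0.326 RPKM with Dab2 at 44.2 and 3 markers under 1 RPKM. The lengths used for Col1a2 and Dab2 were 850 and 642 bp, and with all their annotated exons, 12426 and 7342 bp, they had 11.3 and 3.87 RPKM. None of these markers was listed at 0. In such bulk libraries, fewer cells of a type and less RNA per cell cannot be told apart.

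The synthetase genes were well measured as a group. A level of at least 10 RPKM was found for 26 of the 35 members, beside 24.5% of all genes, and a level of at least 30 RPKM for 20 members, beside 12.2% of all genes. Their median was 38.2 RPKM, and that of all genes was 0.975 RPKM. Only Vars and Iars2 were under 1 RPKM.

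Cytosolic genes were led by Aars, the alanine enzyme (chr8:111033144-111057664, mm10). It measured 442, 521, 525 and 412 RPKM in replicates 1 to 4 (475 ± 56.8, SD, n = 4). Every Aars value was above every value of the other members. Gars, the glycine enzyme of both compartments, was at 165, 184, 184 and 149 RPKM (171 ± 17.2). Dars, the aspartate enzyme of the multisynthetase complex, was at 151, 153, 150 and 121 RPKM (144 ± 15.5). Gars and Dars overlapped in range, and Dars did not overlap the next gene, Lars, which lay between 78.3 and 103 RPKM. From Hars at 55.4 ± 4.65 RPKM down to Sars at 38.0 ± 2.84 RPKM, each gene overlapped the next in the order, so the middle of the order was not resolved beyond the spread of the libraries. Sars, the serine enzyme, had 35.2, 41.0, 39.8 and 35.9 RPKM. Kars, the lysine enzyme of both compartments, had 48.4, 59.3, 53.0 and 49.2 RPKM. Qars, the glutamine enzyme, stood below all of these with 11.7, 14.9, 14.1 and 10.5 RPKM. Eprs, whose product carries the glutamate and proline activities, was not a member under the rule and had 13.0 ± 1.67 RPKM. The cytosolic methionine enzyme was not analysed here.

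Among the mitochondrial genes, Sars2 was highest, with 81.6, 85.6, 85.7 and 83.8 RPKM in replicates 1 to 4. Its highest value was 1.05 times its lowest, the narrowest range of the 33 members above 1 RPKM. Pars2 followed with 46.2, 54.3, 52.1 and 43.6 RPKM, and Hars2 with 38.1, 39.9, 41.4 and 33.2 RPKM. Both lay below Sars2 in every library. At the other end, Wars2 had 4.14, 4.67, 4.54 and 3.81 RPKM and Mars2, the mitochondrial methionine enzyme, had 2.78, 3.02, 2.81 and 2.40 RPKM. Of the 17 mitochondrial genes, 9 reached 10 RPKM and 4 reached 30 RPKM, against 17 and 16 of the 18 cytosolic genes.

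**Figure D1:**
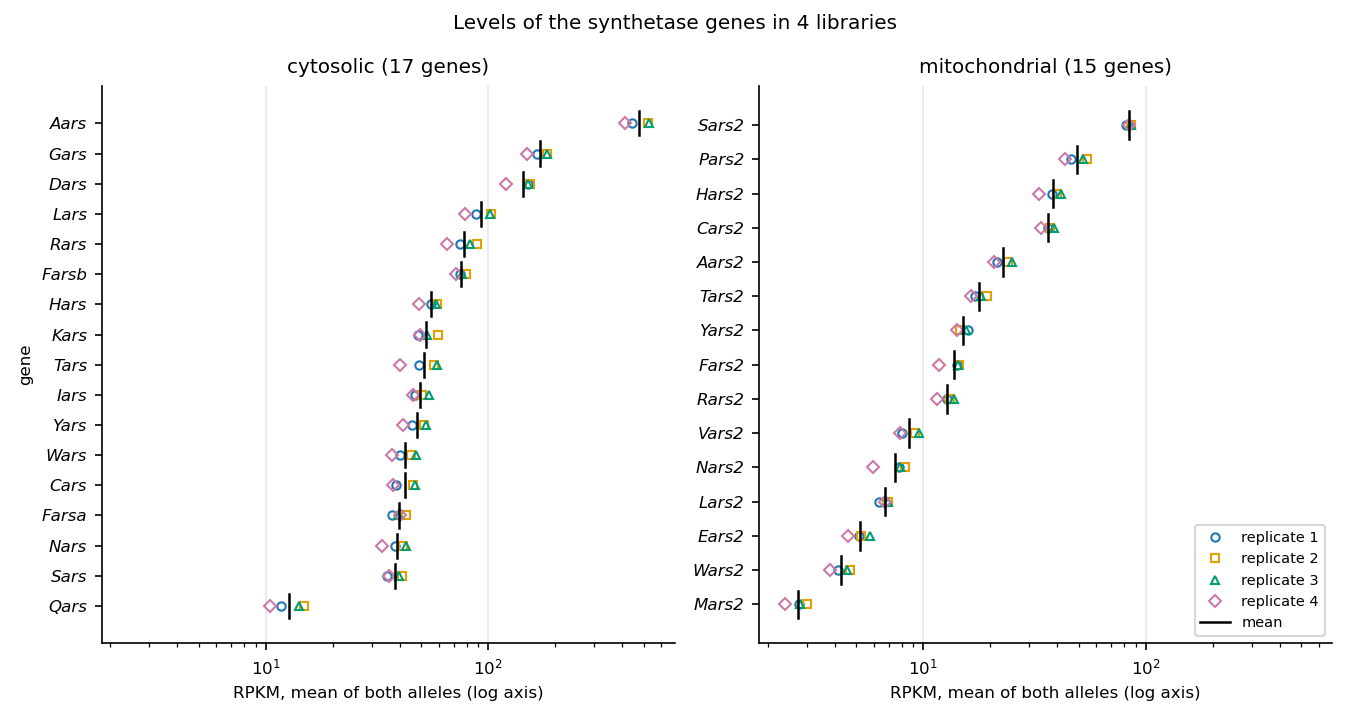
RPKM of synthetase genes above 1 RPKM (horizontal log axis, mean of both alleles) by gene, in cytosolic and mitochondrial panels. Symbols are replicates 1 to 4 and the black bar is their mean. Aars at 475 RPKM stands apart from the other cytosolic genes, and most mitochondrial genes lie left of most cytosolic genes; Vars and Iars2 are not drawn.

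The median over the cytosolic genes was 47.5, 54.4, 53.5 and 43.4 RPKM in replicates 1 to 4 (49.7 ± 5.18, SD, n = 4). The median over the mitochondrial genes was 12.8, 13.3, 13.7 and 11.5 RPKM (12.8 ± 0.949). The cytosolic median was thus higher by 1.95 ± 0.064 on the log2 scale, in 4 of 4 libraries. With lengths of all annotated exons the difference was 2.31. The 6 cytosolic members of the multisynthetase complex (Dars, Iars, Kars, Lars, Qars and Rars) had a median of 65.3 ± 7.56 RPKM, and the 12 outside it a median of 45.3 ± 4.79 RPKM. By the fold of the catalytic domain, the 17 class I genes had a median of 13.3 ± 1.39 RPKM and the 18 class II genes a median of 44.5 ± 4.05 RPKM. Both genes listed near 0 are of class I. Genes are not replicates, and these medians were not tested against each other.

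Vars and Iars2 stood apart from all other members. Vars, the cytosolic valine enzyme (chr17:35000987-35016322, mm10), was listed at 0 RPKM in all 8 allele columns. Iars2, the mitochondrial isoleucine enzyme (chr1:185284726-185329396), was listed at 0.00635 and 0.00356 RPKM in replicates 1 and 2 and at 0 in replicates 3 and 4. Its values stand for 2 reads in replicate 1 and 1 read in replicate 2, all of S129. Valine and isoleucine enzymes are needed in every cell. For these zeros, low expression, few SNPs and the way reads were counted cannot be told apart here. Lsm2, a general RNA-binding protein whose gene lies near Vars, and Exosc6, an exosome subunit whose gene lies within Aars, were likewise listed at 0. Exosc6 shares 1326 bp with the exons of Aars on the same strand, 14.3% of the exon bases of Aars. In all, 13 of the 35 members share exon bases with another annotated gene. The 2034 bp that Iars2 exons share with Rab3gap2, on the opposite strand, make up 22.9% of the exon bases of Iars2, and Rab3gap2 had 7.11 RPKM. No other annotated gene shares exon bases with Vars. How the counting treated shared bases was not given in the sources used here. Its part in these zeros, and in the level and allele difference of Aars, was not tested.

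Levels of different genes depended on the length by which reads were divided. For 29 members the length behind the RPKM was that of the first transcript of the gene in GENCODE M21, for 1 that of another transcript, and for 4 it was found by search. The length of all annotated exons was between 1 and 13.1 times the length used, with a median of 1.58, and at least 3 times as long for 5 members. Aars was the extreme: its values were divided by 709 bp, whereas its exons cover 9282 bp and its longest coding transcript has 5750 bp. With the exon length, Aars fell from rank 1 to rank 8 of the cytosolic genes at 36.3 RPKM, and with the longest coding transcript it stood at rank 6 with 58.6 RPKM. Gars then ranked 1 among the cytosolic genes under both lengths, at 130 RPKM with its exon length of 3119 bp.

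In the mitochondrial class, the length used was 788 bp for Sars2, 896 bp for Hars2 and 502 bp for Pars2, beside exon lengths of 3313, 4279 and 3094 bp. Sars2 was rank 1 also with exon lengths, at 20.0 RPKM, but rank 2 with the longest coding transcript, at 35.5 RPKM behind Cars2 at 36.5 RPKM. With exon lengths Pars2 moved from rank 2 to rank 8 and Hars2 from rank 3 to rank 7. Mars2, with a single length of 11294 bp, kept 2.75 RPKM. The ratio between alleles or libraries of a gene does not depend on the length.

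**Figure D2:**
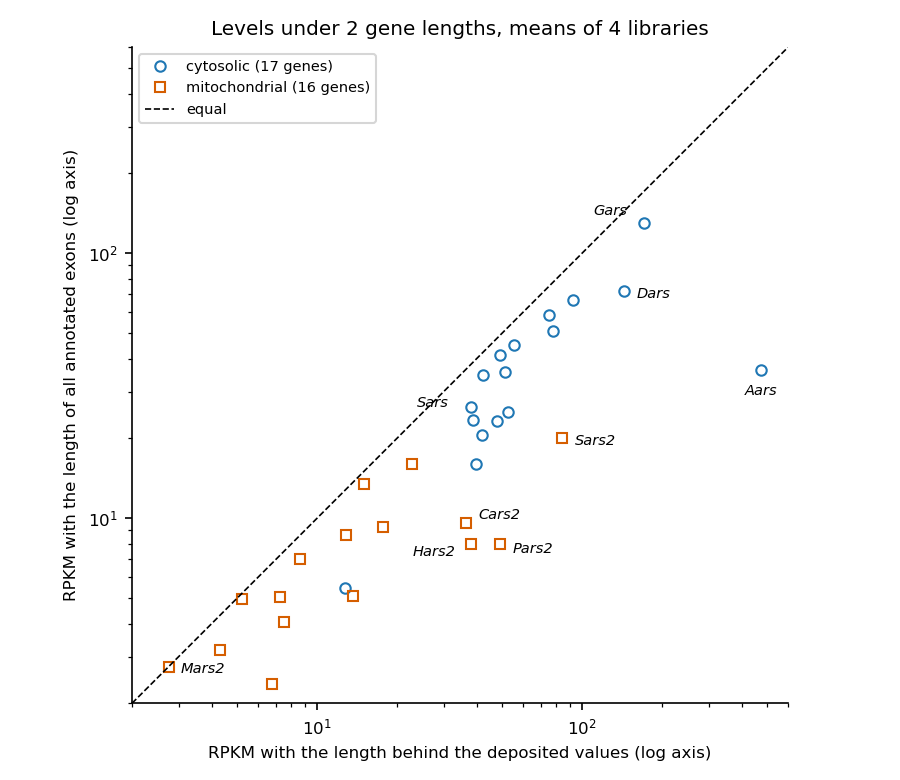
Mean RPKM of 33 synthetase genes with the length behind the deposited values (horizontal log axis) and with the length of all annotated exons (vertical log axis); circles are cytosolic and squares mitochondrial genes, and the dashed line marks equal values. Aars lies farthest below the line, moving from 475 to 36.3 RPKM, and Sars2, Pars2, Hars2 and Cars2 also lie well below it.

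The cytosolic and mitochondrial genes for the same amino acid were then set side by side. The cytosolic gene had the higher RPKM in 12 of the 13 pairs without Vars or Iars2. Fars2 was paired with both Farsa and Farsb, so the pairs counted here and below are not all of different amino acids. Wide pairs were Aars with Aars2, at 4.37 ± 0.054 on the log2 scale (SD over the 4 libraries), and Lars with Lars2, at 3.75 ± 0.16. Lars2 had 6.75 ± 0.291 RPKM. The closest pair was Cars with Cars2, the cysteine enzymes, at 0.20 ± 0.11, and the cytosolic gene was higher in 4 of 4 libraries. Hars and Hars2, the histidine enzymes, differed by 0.54 ± 0.030. With the lengths of all annotated exons these differences were 1.09 and 2.48. Hars and Hars2 lie side by side in opposite directions and share 195 bp of exons.

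The exception was serine. Sars2 exceeded Sars in all 4 libraries, at 2.22 times the RPKM of Sars, or -1.15 ± 0.079 on the log2 scale as cytosolic minus mitochondrial. This order turned with the lengths of all annotated exons, under which Sars was higher by 0.40 on the log2 scale and serine was the closest pair. With these lengths the cytosolic gene was higher in 14 of 14 pairs that have a value, Iars with Iars2 included. The alanine pair narrowed from 4.37 to 1.17 on the log2 scale, whereas leucine widened from 3.75 to 4.76.

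**Figure D3:**
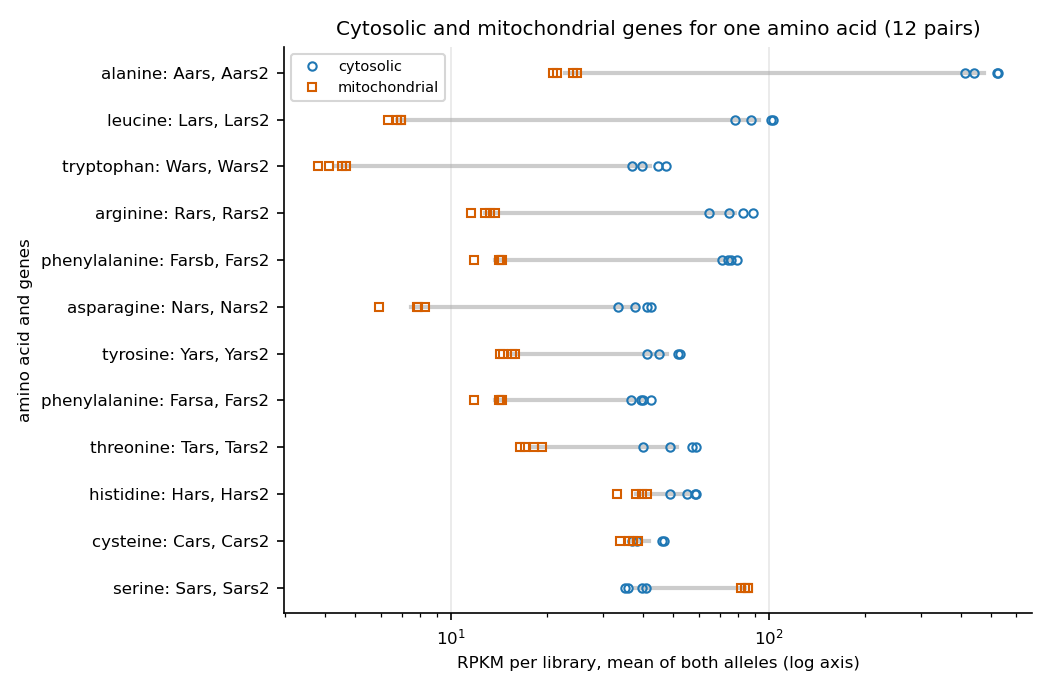
RPKM per library (horizontal log axis, mean of both alleles) of the cytosolic gene (circles) and the mitochondrial gene (squares) for the same amino acid, in pairs ordered by their difference. The 4 circles lie right of the 4 squares in most pairs; cysteine overlaps, and serine is reversed, with Sars2 at 84.2 and Sars at 38.0 RPKM.

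Alleles were compared within each library as log2(S129 RPKM + 0.1) minus log2(CAST RPKM + 0.1), and tested by limma over the 13341 genes whose alleles sum to 1 RPKM or more. At a Benjamini-Hochberg adjusted p under 0.05, S129 was higher for 31.4% and CAST for 31.3% of these genes, 62.7% in either direction. Vars and Iars2 did not pass this filter. Of the 33 members tested, 8 were higher on S129, 16 were higher on CAST and 9 were not called. The median difference was -0.13 over the members and -0.0034 over all genes tested. The median size of the difference was 0.24 over the members and 0.31 over all genes, and 8 members differed by at least 0.5, beside 34.2% of all genes. Of the cytosolic genes, 3 were higher on S129, 9 on CAST and 5 not called, and of the mitochondrial genes 5, 7 and 4.

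These counts moved with the scaling and with the libraries. The S129 total includes the X chromosome, where 464 of 467 genes were higher on S129. With each column divided by its sum of RPKM over autosomal genes, the median of all genes shifted by 0.10. The share of S129 among all calls went from 50.0% to 62.5%, and the members were 10 higher on S129 and 11 on CAST. This scaling ended the calls of Hars (-0.067, adjusted p = 0.193), Fars2 (adjusted p = 0.0632), Wars (adjusted p = 0.181), Tars (-0.025, adjusted p = 0.634) and Aars2 (adjusted p = 0.441) for CAST. Without replicate 1, 2 or 3 the members higher on S129 numbered 5, and without replicate 4 they numbered 6. All genes higher on S129 were 4187 of 13341 with every library. They numbered 3547, 3466, 3535 and 3955 without replicate 1, 2, 3 or 4. Leaving out any of the 4 libraries ended the calls of Farsb and Gars for S129 and of Aars2 and Tars for CAST. The call of Rars2 for S129 was lost without replicate 1, 2 or 3, and that of Wars for CAST without replicate 2 or 3. Their highest adjusted p without a library lay between 0.0656 (Wars) and 0.148 (Rars2). With the columns taken as independent values in place of pairs, 3 members were higher on S129 and 10 on CAST. Of all 13341 genes, 3292 were then higher on S129 and 3133 on CAST, from 4187 and 4182 as pairs.

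Chromosomes 3, 6, 8 and 16 were shifted as a whole. The median difference of their genes was -0.74 on chromosome 3, 0.19 on chromosome 6, -0.25 on chromosome 8 and 0.69 on chromosome 16. All 9 members on these chromosomes were called, 2 for S129 and 7 for CAST, each in the direction of its chromosome. Of all genes tested, 74.9% on chromosome 3 and 53.9% on chromosome 8 were called for CAST, and 51.4% on chromosome 6 and 72.2% on chromosome 16 for S129. Elsewhere 24 members were tested, with 6 for S129, 9 for CAST and 9 not called, beside 27.9% for S129 and 30.3% for CAST of all genes on the other autosomes. The median of the 50 nearest tested genes, 25 on each side, was therefore taken out of each gene. Of all genes, 28.2% were then higher on S129 and 28.3% on CAST, 56.6% in either direction. Of the members, 6 were higher on S129, 13 on CAST and 14 were not called. What shifts these chromosomes was not tested.

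On chromosome 3, Wars2, the mitochondrial tryptophan enzyme (chr3:99141068-99239186), had 2.40, 2.68, 2.84 and 2.27 RPKM on S129 and 5.88, 6.66, 6.25 and 5.36 RPKM on CAST. The alleles did not overlap, and CAST was 2.32 times S129 (log2 difference -1.21, SE 0.042, adjusted p = 5.69e-05). Of its 3580 reads, 30.4% were of S129 (95% exact binomial interval 28.9% to 32.0%, counting error only). The nearest genes had a median of -0.81, and Wars2 kept -0.40 beyond them (adjusted p = 0.00286). Tars2, the mitochondrial threonine enzyme, had 11.5, 13.9, 12.8 and 11.7 RPKM on S129 and 22.6, 24.8, 23.6 and 21.2 RPKM on CAST. Its difference of -0.88 (SE 0.038, adjusted p = 0.000109) equalled that of its nearest genes, also -0.88. Sars had 27.4, 31.5, 30.8 and 27.7 RPKM on S129 and 43.0, 50.5, 48.8 and 44.1 RPKM on CAST, and its difference of -0.66 lay beside a median of -0.71. Both Tars2 and Sars were thus called between alleles, and neither was called beyond the nearest genes (adjusted p = 0.979 and 0.397). With the median of the whole chromosome taken out instead, Tars2 was called at -0.16 (adjusted p = 0.0218), and Sars was at 0.05 (adjusted p = 0.175).

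On chromosome 8, where 53.9% of all genes were called for CAST, all 4 members were higher on CAST. Each remained so beyond the nearest genes, beside 28.3% of all tested genes called for CAST in that way. Aars had 377, 442, 455 and 352 RPKM on S129 and 506, 600, 595 and 472 RPKM on CAST (log2 difference -0.42, SE 0.030, and -0.23 beyond the nearest genes). Kars had 38.9, 44.7, 42.5 and 36.7 RPKM on S129 and 57.9, 73.8, 63.6 and 61.8 RPKM on CAST (-0.66, and -0.43 beyond them). Farsa encodes the catalytic subunit of the phenylalanine enzyme. It had 28.8, 33.1, 31.7 and 29.7 RPKM on S129 and 44.7, 52.0, 47.3 and 50.5 RPKM on CAST (-0.66, and -0.45 beyond them). Cars2 had 29.4, 31.0, 31.2 and 27.3 RPKM on S129 and 43.3, 43.6, 46.0 and 40.5 RPKM on CAST (-0.54, and -0.19 beyond them, adjusted p = 0.0117). Farsb, the gene of the other subunit of the phenylalanine enzyme, is on chromosome 1 and lay slightly the other way, with 78.6 ± 2.73 RPKM on S129 and 72.0 ± 3.95 RPKM on CAST (0.13, SE 0.031, adjusted p = 0.0224).

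The members on chromosomes 16 and 6 were higher on S129. Yars2, the mitochondrial tyrosine enzyme (chr16:16302965-16309640), had 22.0, 19.2, 21.8 and 19.8 RPKM on S129 and 9.89, 9.98, 9.33 and 8.74 RPKM on CAST. S129 was 2.17 times CAST (log2 difference 1.12, SE 0.058, adjusted p = 0.000182), with no overlap. The nearest genes had a median of 0.78, and 0.33 remained beyond them (adjusted p = 0.00883). Gars had 170, 191, 193 and 154 RPKM on S129 and 159, 177, 175 and 144 RPKM on CAST. S129 was higher in 4 of 4 libraries by 0.11 (SE 0.030, adjusted p = 0.0305), although the ranges of the alleles overlapped, and it was not called beyond the nearest genes (-0.01, adjusted p = 0.812).

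On the other chromosomes, the nearest genes had medians between -0.15 and 0.071 for all members but Wars. Dars had 125, 127, 126 and 99.7 RPKM on S129 and 176, 180, 175 and 141 RPKM on CAST. CAST was 1.41 times S129 (log2 difference -0.49, SE 0.029, adjusted p = 0.000262). Vars2, the mitochondrial valine enzyme, had 6.33, 7.23, 7.96 and 6.48 RPKM on S129 and 9.67, 11.1, 11.2 and 9.33 RPKM on CAST (-0.55, SE 0.039, adjusted p = 0.000447). Toward S129, Ears2, the mitochondrial glutamate enzyme, had 6.55, 5.84, 6.36 and 5.58 RPKM on S129 and 3.80, 4.72, 5.17 and 3.61 RPKM on CAST (0.50, SE 0.10, adjusted p = 0.0132). Lars2, the mitochondrial leucine enzyme, had 7.56, 7.43, 7.83 and 7.86 RPKM on S129 and 5.12, 6.46, 6.10 and 5.61 RPKM on CAST (0.40, SE 0.070, adjusted p = 0.00827). Each of these 4 genes was called also beyond its nearest genes, as were 56.6% of all genes tested. Wars, the cytosolic tryptophan enzyme on chromosome 12, was -0.18 between alleles (SE 0.038, adjusted p = 0.0147) while its nearest genes had a median of 0.41. Its value was -0.59 relative to the nearest genes (adjusted p = 0.0035) and -0.15 with the median of chromosome 12 taken out (adjusted p = 0.0373).

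Genes for the same amino acid did not always lie the same way. Lars was higher on S129 by 0.26 (SE 0.032, adjusted p = 0.00254), as was Lars2. Hars lay on the CAST side at -0.17 (SE 0.030, adjusted p = 0.00806), as did Hars2 at -0.33 (SE 0.049, adjusted p = 0.00476). Cars and Cars2 were both higher on CAST, as were Aars and Aars2, Tars and Tars2, and Wars and Wars2. Of these, Aars2, Tars and Tars2 were not called beyond the nearest genes (adjusted p = 0.0617, 0.286 and 0.979). In the serine pair, Sars was called for CAST (-0.66) and Sars2 was not called (0.042). In the arginine and tyrosine pairs, Rars2 (0.11) and Yars2 (1.12) were called for S129, and Rars (-0.12) and Yars (0.019) were not called. Beyond its nearest genes Rars2 was not called (adjusted p = 0.387). Phenylalanine had Farsa and Fars2 on the CAST side and Farsb on the S129 side. Differences between the genes of an amino acid were not tested. Genes not called included Iars, Mars2, Nars, Nars2, Qars, Rars, Sars2 and Yars, with differences between -0.16 and 0.042, and the alleles of each of these overlapped. Beyond its nearest genes Mars2 was called for CAST (-0.19, adjusted p = 0.0456), and the others named here were not called.

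**Figure D4:**
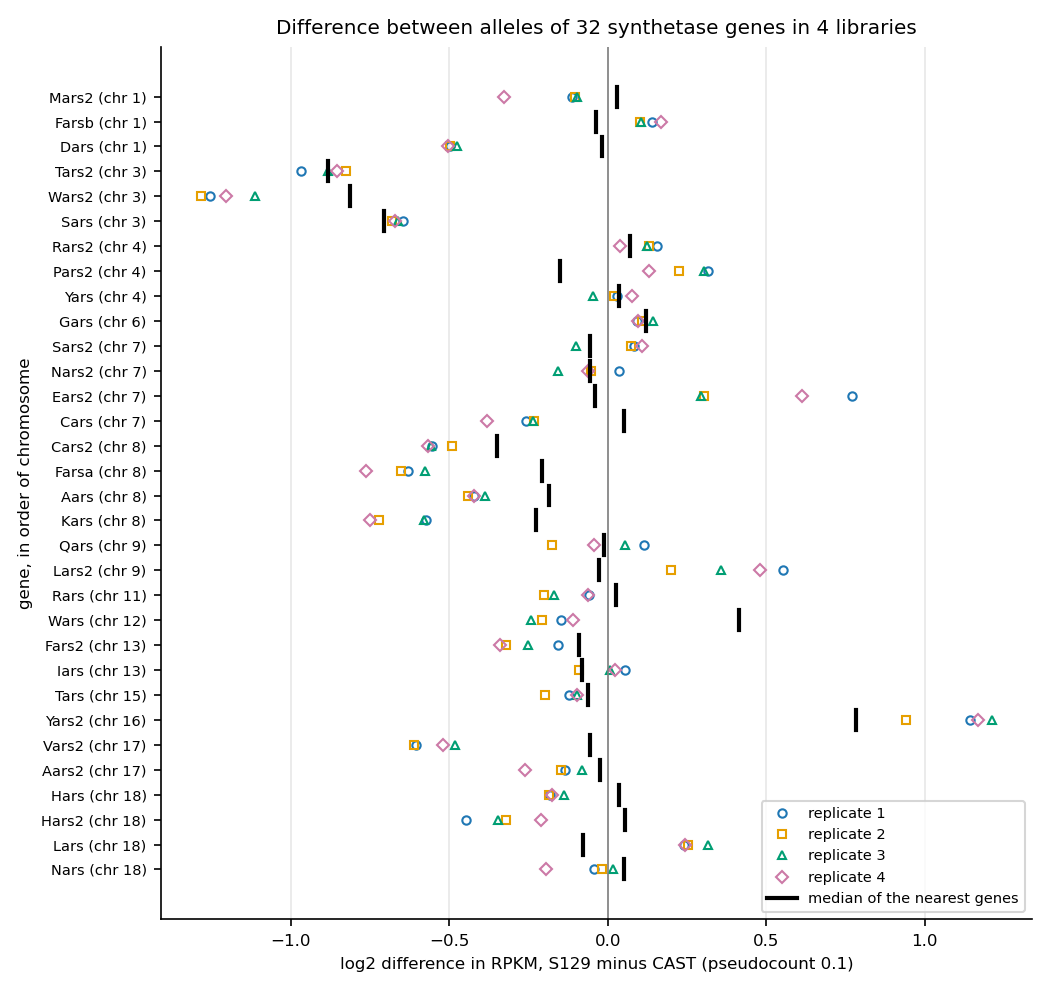
Log2 difference in RPKM, S129 minus CAST, of synthetase genes in order of chromosome. Symbols are replicates 1 to 4 and black bars are the median of the 50 nearest tested genes. Tars2 (-0.88) and Sars (-0.66) on chromosome 3 lie with their neighbours' medians, Wars2 (-1.21) and Yars2 (1.12) lie farther out than theirs (-0.81 and 0.78), and Dars (-0.49) and Vars2 (-0.55) lie away from medians near 0.

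Of 15 other genes of tRNA charging, 3 were higher on S129, 7 on CAST and 5 were not called, beside 31.4% for S129 and 31.3% for CAST of all genes. Beyond the nearest genes these numbers were 3, 5 and 7. Gatb, a subunit of the mitochondrial amidotransferase that makes glutaminyl-tRNA, had 21.2 ± 1.31 RPKM on S129 and 79.5 ± 4.47 RPKM on CAST (-1.90, SE 0.057, adjusted p = 3.8e-05). It lies on chromosome 3 and kept -1.08 beyond its nearest genes. Its partner Gatc was also higher on CAST (-0.51, adjusted p = 0.00501), and Qrsl1 was not called (-0.08, adjusted p = 0.203). Tarsl2, a near relative of Tars, was -0.63 (adjusted p = 0.000253). Dtd2, which removes mischarged amino acids from tRNA, was higher on S129 (0.52, adjusted p = 0.000402). Of the complex scaffolds, Aimp2 was higher on S129 (0.41), Eef1e1 on CAST (-0.17), and Aimp1 on CAST (-0.52) but higher on S129 beyond its nearest genes on chromosome 3 (0.21, adjusted p = 0.0219). Beyond their nearest genes Aimp2 was still called for S129, and Eef1e1 was not called (-0.056, adjusted p = 0.273).

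Of 18 genes of the amino acid response, 17 were tested, of which 1 was higher on S129, 7 were higher on CAST and 9 were not called, beside the same 31.4% and 31.3% of all genes. Atf4, the factor itself, had 203 ± 7.08 RPKM and lay at -0.29 (SE 0.038, adjusted p = 0.00321). Asns, the asparagine synthetase often used as its readout, had 97.3 ± 6.63 RPKM and lay at 0.00 within rounding (SE 0.029, adjusted p = 0.938). Nupr1, a stress-induced chromatin protein, was the single gene higher on S129, with 90.0 ± 9.29 RPKM on S129 and 17.4 ± 1.23 RPKM on CAST (2.36, SE 0.093). Psat1 (-0.55) and Phgdh (-0.90), of serine synthesis, and Slc3a2 (-0.50), of amino acid uptake, were higher on CAST. Phgdh lies on chromosome 3 and was not called beyond its nearest genes (adjusted p = 0.178).

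The synthetase genes differed little between libraries, but moved together. The SD of log2(RPKM + 0.1) over the libraries had a median of 0.14 over the members and 0.13 over all genes with at least 1 RPKM. It was largest for Tars (0.26), with 48.9, 57.2, 58.9 and 40.0 RPKM, then for Qars (0.23) and for Nars2 (0.22), with 7.81, 8.26, 7.89 and 5.92 RPKM. Each of these was lowest in replicate 4. The number of cytosolic genes above their own mean was 2, 17, 16 and 1 of 17 in replicates 1 to 4. Of 16 mitochondrial genes these numbers were 6, 14, 16 and 0. Among the 11946 genes with at least 1 RPKM, the share above their own mean was 39.4%, 71.3%, 75.9% and 27.1% in the same order. Replicates 2 and 3 were thus high and replicate 4 low for all genes as well.

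The deviation had a median of 0.12 and 0.14 in replicates 2 and 3 over the cytosolic genes and -0.19 in replicate 4, beside 0.057, 0.076 and -0.098 over all genes. Over the mitochondrial genes these medians were 0.076, 0.087 and -0.16. Replicates 2 and 3 were the highest pair for 15 of 17 cytosolic and 14 of 16 mitochondrial genes, and for 53.3% of all genes. Of the 15 other charging genes, 9, 10, 7 and 6 were above their own mean in replicates 1 to 4, and of 16 genes of the amino acid response 4, 12, 11 and 6. Replicate 4 had the fewest reads, 34120417. The summed level of the 7 feeder markers was 169, 200, 214 and 182 RPKM in replicates 1 to 4, of which Col1a2 alone made 145, 172, 186 and 160 RPKM and the other 6 markers 24.1, 27.6, 28.1 and 22.3 RPKM. The summed level of the 7 stem cell markers was 8844, 7913, 7624 and 9274 RPKM, mostly from Dppa5a. Without Dppa5a the other 6 summed to 1280, 1417, 1400 and 1115 RPKM, and each of these 6 was highest in replicates 2 and 3 and lowest in replicate 4. Most synthetase genes and 53.3% of all genes also had replicates 2 and 3 as the highest pair. Farsa, Kars, Sars, Lars2 and Sars2 were lowest in replicate 1. The part of depth and of these markers in the deviation was not tested, and all libraries are of the same condition.

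**Figure D5:**
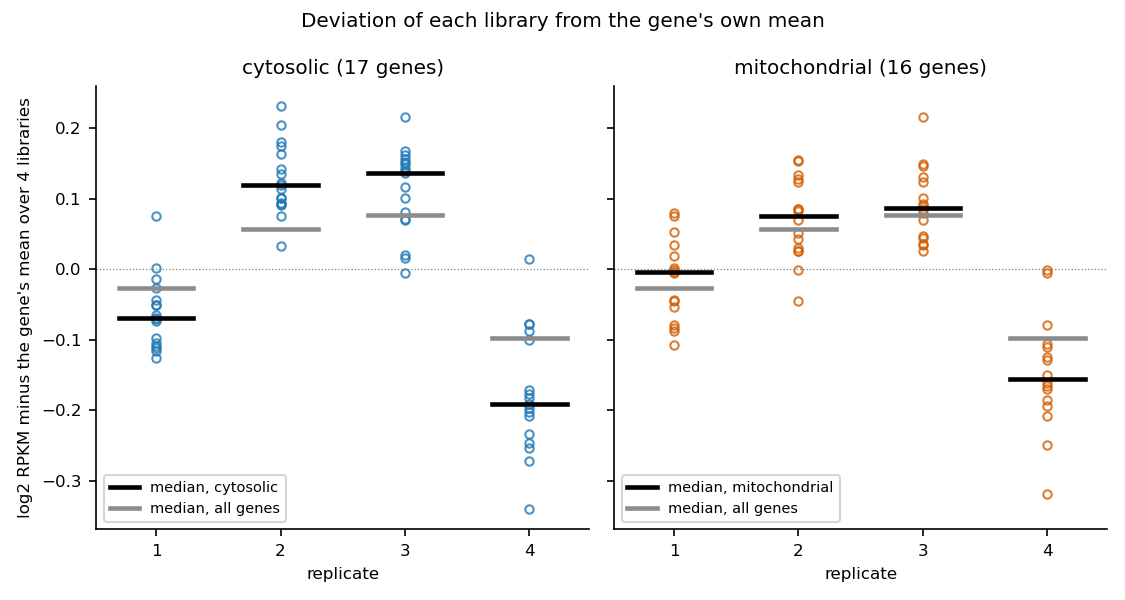
Deviation of log2(RPKM + 0.1) in each replicate from the gene's own mean over 4 libraries, for 17 cytosolic and 16 mitochondrial genes. Circles are genes, the black bar is the median of the class and the grey bar the median of all genes; both classes are high in replicates 2 and 3 and low in replicate 4, at -0.19 and -0.16.

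The promoters of the members were searched for the letters that ATF4 recognises and for the E-box. RefSeq gave promoters of 300 bases, 250 before the start and 50 after it (GRCm38.p6, the mm10 assembly), for 25 of the 35 members. TGATGNAAT, the amino acid response element, was found on either strand in 3 of the 25, in Aars, Gars and Iars, and in 0.965% of 32851 promoters. CACGTG, the E-box bound by MYC and related factors, was found in 5 of the 25, in Aars, Ears2, Farsb, Iars and Tars, and in 7.15% of the promoters. Members were counted by gene and the background by promoter, so these shares are not of the same unit. These matches are a description of the letters and not sites shown to be bound. The sites of the amino acid response element in Gars and Iars are shown because both genes stand in the cytosolic group, with the match in capitals. They are printed on the strand of the gene, and the element lies on the opposite strand, so the capitals are its reverse complement. In Gars the match starts 31 bases before the start, and in Iars at base 7 after it.
Gars, chr6:55037960-55037988, plus strand: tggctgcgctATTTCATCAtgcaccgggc
Iars, chr13:49682126-49682154, plus strand: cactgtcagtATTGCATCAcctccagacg
The 250 bases before the start of Aars are shown because Aars leads the levels as deposited and holds both motifs, which do not overlap each other. The start is that of RefSeq and lies inside the GENCODE interval of Aars given above, so the stretch shown is within that interval. Capitals mark the E-box, starting 146 bases before the start, and then the amino acid response element, starting 113 bases before it.
Aars, chr8:111033592-111033841, plus strand: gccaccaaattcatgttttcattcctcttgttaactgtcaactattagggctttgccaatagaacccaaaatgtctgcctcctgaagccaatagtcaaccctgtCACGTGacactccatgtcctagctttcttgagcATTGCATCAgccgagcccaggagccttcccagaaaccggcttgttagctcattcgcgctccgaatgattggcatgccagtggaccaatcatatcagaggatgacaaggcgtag
The genes with the amino acid response element had 475, 171 and 49.1 RPKM, beside the median of 50.2 RPKM over the mean levels of the cytosolic genes, and their differences between alleles were -0.42, 0.11 and -0.0011 in the order Aars, Gars and Iars. With the lengths of all annotated exons their levels were 36.3, 130 and 41.2 RPKM in that order. A link between the element and the level was not tested.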

How the data were processed

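RNAseq of polyA RNA from 4 libraries of untreated F123-ESCs was used, sequenced as paired reads of 150 bp. The authors filtered ribosomal RNA reads with SortMeRNA, trimmed with Trimmomatic (0.40, per the submitters' processing notes), aligned with STAR to mm10 masked at SNPs, and divided the reads by SNPsplit into S129 and CAST. They deposited RPKM per gene and allele, averages over the libraries and log10 of the average plus 1; the deposited averages and log10 values were not used. The counting program and annotation were not given in the sources used here.

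Gene lengths and reads were recovered from the steps between RPKM values with GENCODE M21 (23995 of 24026 genes matched). The first transcript explained 87.0% of the 20243 genes above 0, within 0.02 reads of a whole number. Totals of reads were 17403695 to 28772352 for S129 and 16716722 to 27855621 for CAST. For genes whose length was found by search, reads are the fewest possible. Intervals cover counting error only.

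Alleles were compared by limma (3.58.1, R 4.3.3) on within-library differences with a pseudocount of 0.1 RPKM, which understates differences of low values. Both columns of a number are reads of the same library, which is where the pairing comes from. The test is two-sided, with Benjamini-Hochberg adjustment over 13341 genes. Python 3.11.15 did the rest. The recovery and limma were tested on simulated data.

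Every member could be named, except that an item withheld from this text is not reported here by name and is not drawn where genes are labelled. Values in every library were given for the 3 highest and 3 lowest of each class, members called with a difference of at least 0.5, members on chromosomes 3, 6, 8 and 16, the 3 with the largest SD, and Gars and Kars; Ears2 and Lars2 were added after their values were seen. Members and lists were chosen with earlier results of these data known. Alternatives were another pseudocount, filter, scaling, centring, variance model, unit, length, allele and summary, Eprs added, no replicate block, and each library left out. Added after seeing the data were the nearest genes taken out, autosomal reads as the scale, the longest coding transcript, and the classes without Vars and Iars2.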

Additional observations from a re-analysis of the deposited data

Results flagged for a closer look

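Of 66 quantities tested, the RPKM and the allele difference of each of the 33 members above 1 RPKM, 6 had a library farther from the other 3 than Dixon's 95% critical value for 4 values allows. Chance gives about 1 in 20 such results, or 3.3 of 66. For 2 of them the level was low in replicate 4: Dars had 120.6 RPKM there, beside 150.1 to 153.4 RPKM in the other libraries, and Fars2 had 11.8 RPKM, beside 14.2 to 14.5 RPKM. The other 4 were log2 differences of S129 minus CAST. Lars was at 0.32 in replicate 3, beside 0.24 to 0.25. Cars2 was at -0.49 in replicate 2, beside -0.57 to -0.56. Mars2 was at -0.33 in replicate 4, beside -0.11 to -0.096. Sars2 was at -0.10 in replicate 3, beside 0.075 to 0.11. Without replicate 4, Dars and Fars2 stayed higher on CAST.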

How the results depend on the processing

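The count of members higher on S129, 8, was 5 without the filter on low values and 3 without the replicate block, and ran from 5 to 6 with a library left out. The count higher on CAST, 16, was 10 without the replicate block, and 13 to 14 with a library left out. The counts over all genes moved too. Those higher on S129, 4187 of 13341, were 4471 of 20243 without the filter and 3292 of 13341 without the block. They ran from 3466 to 3955 with a library left out. Those higher on CAST, 4182, were 3133 without the block and 3380 to 3949 with a library left out. Of 493 allele differences of single members under the alternatives, 427 kept their direction and side of the threshold, 52 lost the call, 9 gained it and 5 turned. Those that turned were Gars, at -0.092 with the chromosome median taken out and -0.011 with the nearest genes taken out, Sars, at 0.054 and 0.041, and Tars2, at 0.0018 with the nearest genes taken out. None of these 5 was called. By the construction of these alternatives, the shift of the chromosome or the neighbours is removed. The cytosolic median of 49.7 RPKM was 35.0 with exon union lengths and 43.4 as the mean of log2. The mitochondrial median of 12.8 RPKM was 7.01 with exon union lengths, 10.4 on CAST alone, 10.2 as the mean of log2 and 10.2 with the longest coding transcript. Their log2 difference of 1.95 was 2.31, 2.34, 2.08 and 2.27 in the same order. With each column scaled to its autosomal sum, genes above their own mean moved to 22.8% and 84.6% of all genes in replicates 1 and 2, and to 18.8% and 100% of the mitochondrial genes. The causes of the other moves were not tested. Replicate 4 held the fewest reads, and Wars2, at 174 to 723 reads per column, was the shallowest member tested.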
